A study of Arabidopsis thaliana with 6 samples.

Results

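The plastid genome encodes the 4 core subunits of the plastid-encoded RNA polymerase (PEP), and their genes are *rpoA*, *rpoB*, *rpoC1* and *rpoC2*. They were found by their symbols among the probe sets that the probe table assigns to 1 gene. All 4 were found, each with 1 probe set, among 13356 genes with a probe set of their own, of which 69 are plastid-genome genes. The transcripts were measured on 6 ATH1 arrays in whole seedlings, with root, hypocotyl and cotyledon in 1 sample. The wild type was Col-0, with 3 arrays. The mutant was *rcb-10*, also with 3 arrays, which carries a T-DNA insertion in an intron of *RCB* in the same ecotype and is described as a null allele. *RCB* (REGULATOR OF CHLOROPLAST BIOGENESIS) is a nuclear gene. Col-0 and *rcb-10* alike had 4 days of stratification and then 4 days of growth under continuous red (R) light at 10 μmol m-2 s-1. Each array of a genotype comes from its own culture of seedlings. The mutant group is a single insertion line, with no second allele and no rescued line on these arrays.

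PEP is a bacterial-type enzyme that chloroplasts kept from their cyanobacterial ancestor. Its α subunit comes from *rpoA*, its β subunit from *rpoB*, and its β′ and β″ subunits from *rpoC1* and *rpoC2*, which together match the single β′ subunit of most bacteria. Nuclear-encoded sigma factors direct the enzyme to promoters, and a ring of nuclear-encoded PEP-associated proteins joins it as the chloroplast forms. In green tissue PEP transcribes most photosynthesis genes of the plastid. A phage-type enzyme, the nuclear-encoded RNA polymerase (NEP), transcribes housekeeping genes of the plastid, among them the genes for the PEP core, and in plants without working PEP the transcripts of such genes are known to be abundant.

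The signals are linear values in arbitrary units from the deposited arrays, and the log2 of each was compared between genotypes with limma, with Benjamini-Hochberg adjustment over 22746 probe sets. A probe set was called higher or lower at an adjusted p under 0.05. Signals at or below 43.8, which no trp control probe set exceeded, were taken as background, and each array had 19.5% to 21.7% of its probe sets there. Log2 signals correlated at 0.945 to 0.953 between arrays of 1 genotype and at 0.919 to 0.928 between genotypes. The actin 3′ to 5′ control ratio was 3.36 to 3.90 in Col-0 and 3.37 to 3.63 in *rcb-10*. The 25S rRNA control probe set gave 9496 to 11334 in Col-0 and 14157 to 14586 in *rcb-10*, and the part of this difference in the results was not tested. The labelling was primed with oligo(dT), and plastid transcripts mostly lack a stable poly(A) tail, so a signal here does not count molecules. Only differences between genotypes, not levels, were set against each other across genes. Whether the share of transcripts with a tail differed between the genotypes was not tested. Of the markers of cotyledon and green tissue, 2 of 6 had a named probe set. The stomatal regulator *FAMA* gave 308, 245 and 267 in Col-0 and 230.1, 222 and 262 in *rcb-10* (log2 difference −0.20, limma adjusted p = 0.382). The guard-cell gene *GC1* gave 1843, 1372 and 1358 in Col-0 and 1003, 784 and 743 in *rcb-10*, and was called lower (log2 difference −0.85, limma adjusted p = 0.0371), a call lost in each of the 6 fits that left out 1 array. None of 8 root markers and none of 5 seed storage markers had a named probe set, so the share of each organ in the RNA could not be checked. In RNA from whole seedlings, fewer cells of a type and less RNA per cell cannot be told apart.

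Transcript signals of all 4 core genes were higher in *rcb-10* than in Col-0. The gene for the β subunit rose at least 6.55-fold, those for the β′ and β″ subunits rose 6.92-fold and 6.61-fold, and the gene for the α subunit rose 2.87-fold. In each of the 4, the lowest *rcb-10* array lay above the highest Col-0 array. All 4 were called higher, where 6.76% of all probe sets tested were called higher, 2.80% were called higher with a fold of at least 2, and 17.4% had every *rcb-10* array above every Col-0 array. The median log2 difference of the 4 genes was 2.76, and that of all probe sets tested was −0.04.

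*rpoB*, for the β subunit that holds part of the catalytic centre, gave 32.6, 46.8 and 46.0 in Col-0 replicates 1, 2 and 3. In *rcb-10* it gave 295, 299.6 and 299. The Col-0 arrays sat around the background level, 2 of them above it, while the *rcb-10* arrays were well above it and close to each other. The means were 41.8 ± 7.96 in Col-0 and 298 ± 2.38 in *rcb-10* (SD, n = 3 each), a log2 difference of 2.85 (SE 0.17, limma adjusted p = 0.00381). Because 1 Col-0 array was under background, this difference is better read as a bound. With low signals raised to the background level, *rpoB* was at least 6.55-fold higher in *rcb-10* (limma adjusted p = 9.7e-05). The raising also narrowed the Col-0 spread, and the SE fell from 0.17 to 0.03. This smaller p is therefore not stronger evidence than the p as measured.

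*rpoC1*, for the β′ subunit, lies next to *rpoB* and follows it in the direction of transcription. Its Col-0 signals were 1389.9, 1152 and 1042. Its *rcb-10* signals were 8255, 7892 and 8503. The groups did not overlap, and the lowest *rcb-10* array was 5.68 times the highest Col-0 array. Means were 1195 ± 178 and 8216 ± 307 (SD, n = 3 each), and the log2 difference was 2.79 (SE 0.14, limma adjusted p = 0.00381).

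*rpoC2*, for the β″ subunit, gave 636, 657 and 679 in Col-0 and 4596, 3979 and 4484 in *rcb-10*. The Col-0 arrays hardly differed, and the gap to the lowest *rcb-10* array was 5.86-fold. The means were 658 ± 21.4 and 4353 ± 329 (SD, n = 3 each). The log2 difference was 2.72 (SE 0.11, limma adjusted p = 0.00381), and only 1 of the 22746 probe sets had a smaller unadjusted p.

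*rpoA* encodes the α subunit, on which the enzyme assembles. It gave 6037, 6632 and 6727 in Col-0 and 17742, 18869 and 19097 in *rcb-10*. These signals were all far from background and below 35350.2, the highest signal on any array, and the groups did not overlap. The means were 6465 ± 374 and 18569 ± 726 (SD, n = 3 each), with a log2 difference of 1.52 (SE 0.11, limma adjusted p = 0.00433).

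**Figure D1:**
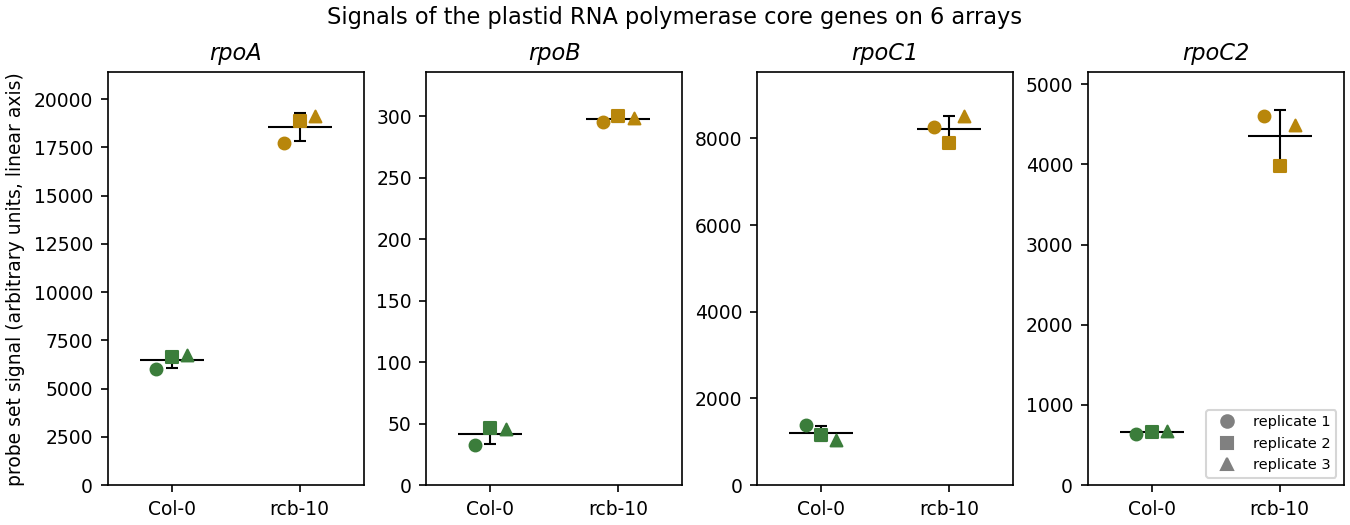
Signal of the 4 core genes of the plastid-encoded RNA polymerase on each array, in arbitrary units on a linear axis from 0, with 1 panel and 1 scale per gene. Marker shapes are replicates (3 Col-0 in green and 3 *rcb-10* in brown), and lines are group means with SD. All 3 *rcb-10* points lie above all 3 Col-0 points in every panel, with *rpoB* at 295 to 299.6 in *rcb-10* against 32.6 to 46.8 in Col-0.

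Spread within a genotype was small beside these differences. The coefficient of variation of the Col-0 arrays was 3.26% for *rpoC2*, 5.78% for *rpoA*, 14.9% for *rpoC1* and 19.1% for *rpoB*. In *rcb-10* it was 0.798% for *rpoB*, 3.74% for *rpoC1*, 3.91% for *rpoA* and 7.55% for *rpoC2*. No array was the highest, or the lowest, of its genotype for all 4 genes.

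The rises were then set against each other, as the difference of the log2 signals of 2 genes on the same array, which cancels a shift that both share. In all, 11 pairs were compared, including the pairs with neighbouring genes described below, each with a two-sided exact permutation test. The smallest p that 3 arrays per genotype allow is 0.1, and 0.1375 was the smallest after adjustment over these pairs. Among *rpoB*, *rpoC1* and *rpoC2* no difference larger than the spread was seen. The rise of *rpoC1* exceeded that of *rpoC2* by 0.07 on the log2 scale (SE 0.15). The rise of *rpoB* is a bound, and its order against these genes is not settled. As measured, it differed by 0.06 (SE 0.29) from that of *rpoC1* and by 0.13 (SE 0.16) from that of *rpoC2*. With low signals raised to background it differed by −0.08 (SE 0.15) and −0.01 (SE 0.07), errors that the raising itself narrows. Groups overlapped in these 3 pairs (as measured, exact permutation p = 0.7 for *rpoC1* against *rpoC2*, 1 for *rpoB* against *rpoC1* and 0.6 for *rpoB* against *rpoC2*, and 0.77, 1 and 0.733 after adjustment), though with 3 arrays a difference of the order of these errors would not be seen.

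The rise of *rpoA* was smaller than that of the other 3 genes. On the log2 scale *rpoB* exceeded *rpoA* by at least 1.19 with low signals raised to background (1.33 as measured, SE 0.12), *rpoC1* exceeded it by 1.27 (SE 0.18), and *rpoC2* exceeded it by 1.2 (SE 0.09). The groups did not overlap in any of these pairs, and each reached the smallest p the design allows (exact permutation p = 0.1, adjusted p = 0.1375). The rise of *rpoA* was thus below the others by more than the spread between arrays, in a design where this test cannot pass the threshold. Whether the measured rise of a probe set depends on its signal level was not tested.

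In the plastid genome *rpoB*, *rpoC1* and *rpoC2* lie side by side, followed by *rps2*, for a protein of the small ribosomal subunit, and then by *atpI*, the first of 4 ATP synthase genes. *rps2* gave 2391, 2633 and 2818 in Col-0 and 12145, 9360.2 and 11041 in *rcb-10*. It rose with its neighbours without overlap between the genotypes (log2 difference 2.05, SE 0.15, limma adjusted p = 0.00433). Its rise was smaller than that of *rpoC2* by 0.68 on the log2 scale (SE 0.06, no overlap, exact permutation p = 0.1). *atpI*, for a membrane subunit of the ATP synthase, gave 612, 630.2 and 465 in Col-0 and 927, 705 and 765 in *rcb-10*. Its arrays also did not overlap, but it did not pass the test (log2 difference 0.49, limma adjusted p = 0.123). The rise of *rps2* exceeded that of *atpI* by 1.55 (SE 0.20, no overlap, exact permutation p = 0.1). None of the 4 genes from *atpA* to *atpI* was called, with log2 differences of 0.10 to 0.51. After centring each array on its median, 1 of them was called higher, *atpH* (limma adjusted p = 0.0302).

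On the other side of *rpoB* lies *petN*, for a small subunit of the cytochrome b6f complex. It gave 226, 227 and 263 in Col-0 and 172, 217 and 245 in *rcb-10*. The genotypes overlapped, and *petN* did not pass the test (log2 difference −0.19, limma adjusted p = 0.498). The rise of *rpoB* exceeded the difference of *petN* by at least 2.90 with low signals raised to background (3.04 as measured, SE 0.21, no overlap, exact permutation p = 0.1). Of the 4 genes from *petN* to *psbC*, 2 fell. These were *psbD* and *psbC*, for a reaction centre protein and a core antenna protein of photosystem II, with log2 differences of −2.68 and −2.56 (limma adjusted p = 0.00423 and 0.00381).

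*rpoA* lies elsewhere, between *petD*, for subunit IV of the cytochrome b6f complex, and a run of ribosomal protein genes. *rpl36*, the nearest measured ribosomal protein gene, gave 8387, 8172 and 8326 in Col-0 and 27582, 26711 and 27254 in *rcb-10*. All *rcb-10* arrays were above all Col-0 arrays, and its log2 difference was 1.71 (SE 0.10, limma adjusted p = 0.00381). As measured, this rise was greater than that of *rpoA* by 0.19 (SE 0.07, exact permutation p = 0.1, adjusted p = 0.1375). The groups were only narrowly apart. The log2 signal of *rpl36* minus that of *rpoA* was at most 0.474 in Col-0 and at least 0.501 in *rcb-10*. All 6 measured genes from *rpl36* to *rps19* were called higher, and all 6 kept the call whichever array was left out. Their log2 differences ran from 0.89 to 1.71 with a median of 1.26, a range that holds the 1.52 of *rpoA*.

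On the other side of *rpoA*, none of the 6 measured genes from *psbB* to *petD* was called higher. *clpP*, the next measured gene beyond *psbB*, was called higher, as given below. *petD* gave 118, 101 and 175 in Col-0 and 104, 97.1 and 97.8 in *rcb-10*. Its genotypes overlapped and it did not pass the test (log2 difference −0.36, limma adjusted p = 0.316). The rise of *rpoA* exceeded the difference of *petD* by 1.89 (SE 0.23, no overlap, exact permutation p = 0.1). Of the 6 measured genes from *psbB* to *petD*, 4 fell and none rose, with log2 differences of −2.59 to 0.54. The largest fall was that of *psbB*, for a core antenna protein of photosystem II, from 1234 ± 199 to 206 ± 41.6 (SD, n = 3 each, limma adjusted p = 0.00441). The calls of 2 of these 4 genes depended on single arrays: *psbT* lost its call without replicate 2 of Col-0, and without replicate 2 or replicate 3 of *rcb-10* (limma adjusted p up to 0.0586), and *petB* lost it without *rcb-10* replicate 2 (limma adjusted p = 0.052).

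**Figure D2:**
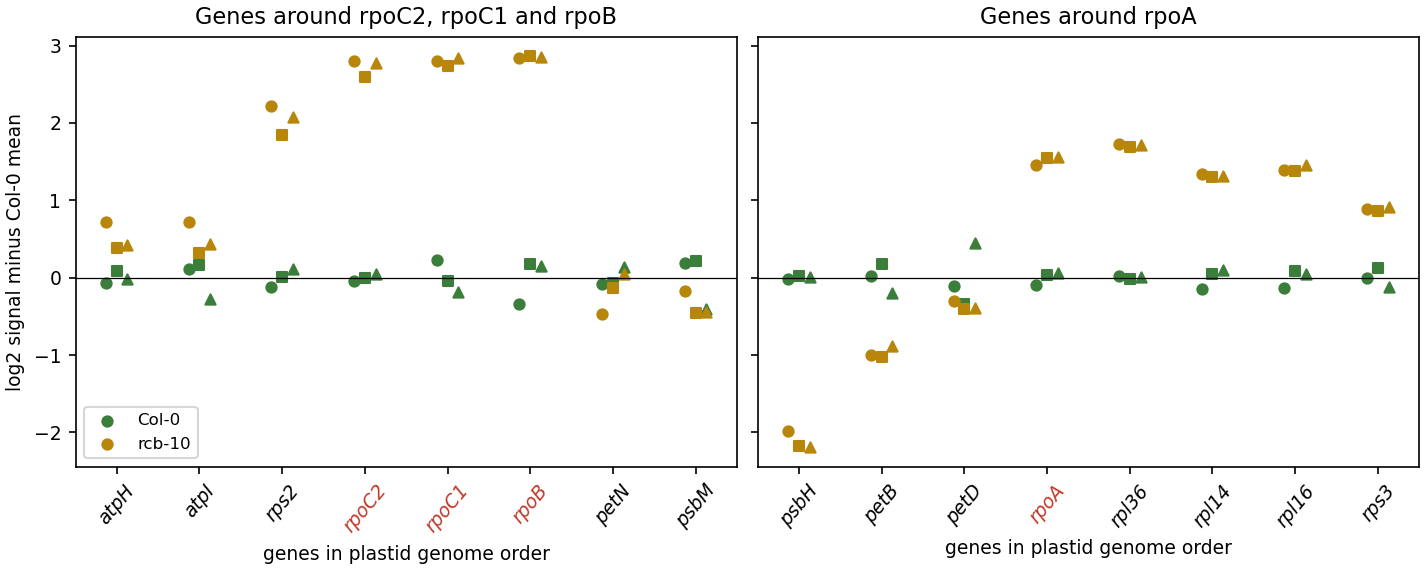
Log2 signal of each array minus the Col-0 mean of the same gene, for the core genes (red names) and the nearest measured genes in their order along the plastid genome, genes without a probe set of their own left out. Each point is 1 array, in green for Col-0 and brown for *rcb-10*, with a marker shape for each replicate. All *rcb-10* points lie above all Col-0 points from *atpH* to *rpoB* and from *rpoA* to *rps3*, though *atpH* and *atpI* were not called. The genotypes overlap at *petN*, *psbM* and *petD*.

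Across the whole plastid genome, 18 of the 69 measured genes rose, 18 fell and 33 did not pass the test, with a median log2 difference of 0.17, where 16.9% of all probe sets tested were called in either direction. Without the core genes, 14 of 65 rose. With low signals raised to background, *rpoC1*, *rpoC2* and *rpoA* held places 2, 3 and 10 by log2 difference among the 69 genes, and *rpoB*, for which the difference is a bound, held place 4 or a higher one. The gene above *rpoC1* on this scale was *rps15*, for a protein of the small ribosomal subunit, which went from 552 ± 74.6 to 3871 ± 576 (log2 difference 2.81, limma adjusted p = 0.00381). Ribosomal protein genes came nearest to the core genes: 10 of 15 rose and 2 fell, with a median of 1.07. *rpl20*, for a protein of the large subunit, went from 570.5 ± 65.4 to 3533 ± 430.0 (log2 difference 2.63, SE 0.16, limma adjusted p = 0.00381). The 2 that fell were *rpl33* (log2 difference −1.61, limma adjusted p = 0.0128) and *rps14* (−1.12, limma adjusted p = 0.0336). *rps14* was above background on 1 of 3 *rcb-10* arrays, so its fall is also a bound. Raising low signals to background, which narrows the *rcb-10* spread, left it at least 1.90-fold lower (limma adjusted p = 0.018). It kept its call in only 1 of the 6 fits that left out 1 array (limma adjusted p up to 0.0868).

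Among the 7 other plastid genes, 3 rose and 1 fell. *ycf3*, for a factor in photosystem I assembly, had a log2 difference of 1.98 (limma adjusted p = 0.00433), and *clpP*, for a subunit of the plastid protease, had one of 0.95 (limma adjusted p = 0.00725). The third was *ycf4* (0.77, limma adjusted p = 0.0169), also for photosystem I assembly, which kept its call in 1 of the 6 fits that left out 1 array. *ccsA*, for attachment of haem to c-type cytochromes, was the gene that fell (−0.75, limma adjusted p = 0.0376), and it too kept its call in 1 of those 6 fits. *accD*, for a subunit of acetyl-CoA carboxylase and a classic NEP-transcribed gene, did not pass the test (log2 difference 0.21, limma adjusted p = 0.306).

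The photosynthesis genes, most of which depend on PEP in green tissue, had a lower median. Of 43 measured, 15 fell, 1 rose and 27 did not pass the test, with a median of −0.19. The gene that rose was *ndhH*, for a subunit of the NDH complex (log2 difference 2.30, limma adjusted p = 0.00381). *psbA*, for the D1 protein of photosystem II, went from 2446 ± 573 to 329 ± 12 (log2 difference −2.87, SE 0.19, limma adjusted p = 0.00423). *rbcL*, for the large subunit of Rubisco, went from 3734 ± 371 to 634 ± 39.8 (log2 difference −2.55, SE 0.13, limma adjusted p = 0.00381). By complex, 9 of 15 *psb* genes, 2 of 5 *psa* genes, 2 of 10 *ndh* genes and 1 of 6 *pet* genes fell. Of all probe sets tested, 10.2% were called lower. None of 6 *atp* genes was called in either direction. Of the 16 photosynthesis genes called, 8 kept the call in all 6 fits that left out 1 array. Both *psa* calls were lost in some of these fits: *psaA* kept its call in 3 of 6 (limma adjusted p up to 0.0572) and *psaJ* in 2 of 6 (limma adjusted p up to 0.065). Among the *psb* genes, *psbK* and *psbI* kept theirs in 1 of 6 (limma adjusted p up to 0.0954 and 0.105), beside *psbT* described above.

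**Figure D3:**
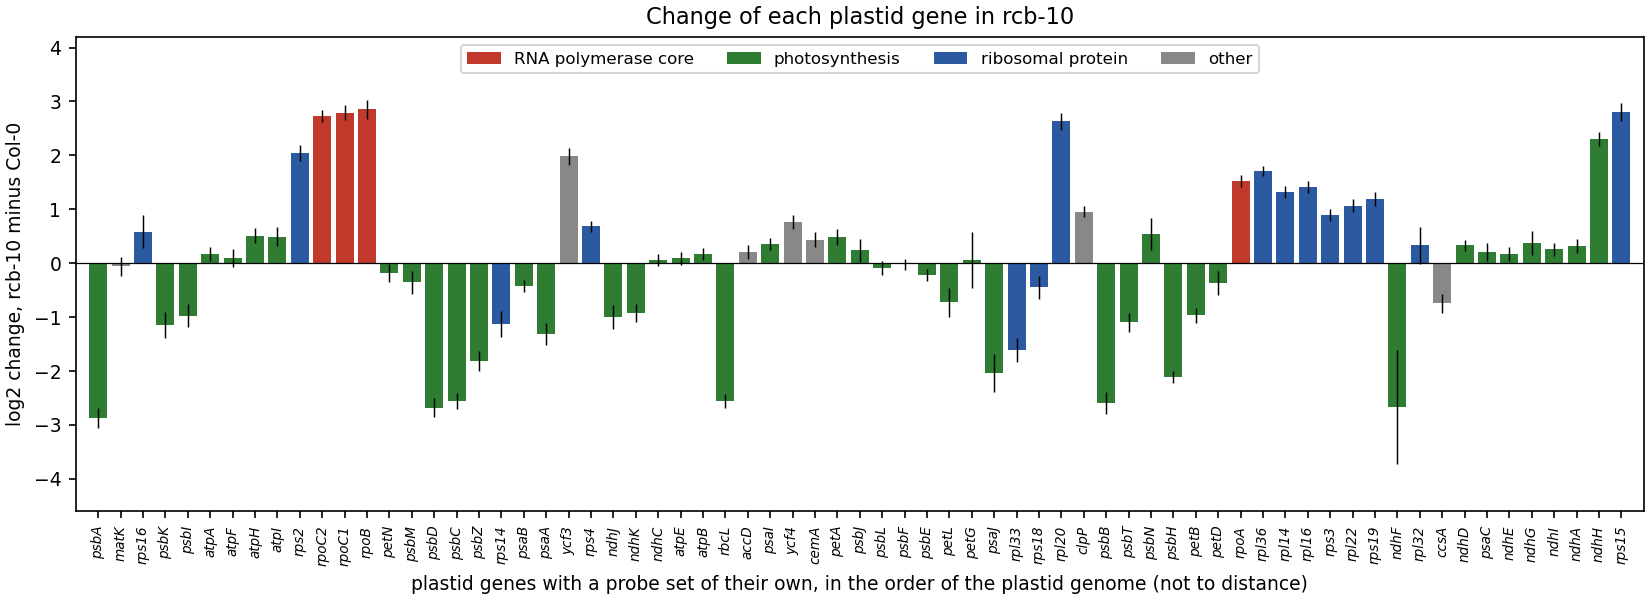
Log2 difference between *rcb-10* and Col-0 for each of the 69 plastid genes with a probe set of its own, in the order of the genome and not to distance, coloured by group. Bars start at 0, and error bars are limma SE with 3 arrays per genotype. *rpoC2*, *rpoC1* and *rpoB* stand side by side at 2.72 to 2.85 as measured, *rpoA* stands at 1.52 beside a run of ribosomal protein genes, and the lowest bar is *psbA* at −2.87.

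The nuclear partners of the core could be measured only in small part. Of 32 listed genes for plastid transcription, 3 had a named probe set, and none of the 12 PEP-associated proteins or 6 sigma factors was among them. *RPOTmp*, a phage-type polymerase that works in plastids and mitochondria, gave 67.2, 50.8 and 26.9 in Col-0 and 23.8, 29.1 and 40.4 in *rcb-10*. Most of these signals lay at or near background, the genotypes overlapped, and the gene did not pass the test (log2 difference −0.57, limma adjusted p = 0.366). *YS1*, for a protein that edits the *rpoB* transcript, gave 45.0, 36.8 and 44.5 in Col-0 and 15.9, 22.0 and 54.2 in *rcb-10* and was also near background (log2 difference −0.65, limma adjusted p = 0.381).

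The gene that was called was AT2G31840, named *MRL7-L* in the TAIR10.1 annotation and a paralogue of *RCB*. It gave 411, 321 and 289 in Col-0 and 136, 179 and 141 in *rcb-10*. The genotypes did not overlap, and the log2 difference was −1.16 (SE 0.19, limma adjusted p = 0.0174), where 10.2% of all probe sets tested were called lower, 4.41% were called lower with a fold of at least 2, and 23.1% had every *rcb-10* array below every Col-0 array. The call was lost without replicate 2 of Col-0, and without replicate 1 or replicate 3 of *rcb-10* (limma adjusted p up to 0.0631).

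A sigma factor and a PEP-associated protein have probe sets that the probe table does not name, and these are known only from a list of probe sets chosen for their change in these samples, so their values are a description with no test. *SIG4*, the sigma factor known for transcribing *ndhF*, gave 324, 396 and 377 in Col-0 and 1116, 1184 and 1049 in *rcb-10*, a log2 difference of 1.61. *FSD2*, the iron superoxide dismutase also counted as PAP9, gave 578, 422 and 447 in Col-0 and 242, 285 and 259 in *rcb-10*, a log2 difference of −0.87. *SIG4* was thus higher on every *rcb-10* array and *FSD2* lower on every one. *ndhF*, which has a named probe set, gave 51.5, 79.0 and 108 in Col-0 and 63.8, 4.55 and 5.88 in *rcb-10*. It was above background on 1 of 3 *rcb-10* arrays, and the genotypes overlapped. *ndhF* did not pass the test (log2 difference −2.67, limma adjusted p = 0.144).

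Among 13217 nuclear genes with a named probe set, some had a pattern over the 6 arrays close to that of a core gene. Likeness was the root mean square difference of log2 signals after each gene was centred on its Col-0 mean. A small value means mainly that 2 genes rose by like amounts, and their differences between replicates need not be alike. Nearest to *rpoA* was *ALDH7B4*, an aldehyde dehydrogenase gene, at 0.0458. It gave 3246, 3895 and 3604 in Col-0 and 10059, 10483 and 10607 in *rcb-10*, with the lowest signal in replicate 1 of each genotype as for *rpoA*. AT3G10020 followed at 0.0941 and *SBT3.12*, a subtilase gene, at 0.0998. Nearest to *rpoB* were AT5G52390 at 0.0964, AT1G22890 at 0.187 and *ICL*, for isocitrate lyase of the glyoxylate cycle, at 0.206. AT5G52390 was below background on all Col-0 arrays (28.5, 36.9 and 39.6), and *rpoB* was around background there. Both rises in this match are therefore bounds. AT5G52390 and AT1G22890 were also the nearest to *rpoC2*, at 0.152 and 0.161, followed by AT1G25400 at 0.225. *rpoC1* had no neighbour as close. Its nearest were AT2G03320 at 0.229 and AT1G33220 at 0.249, both below background on all 6 arrays, and AT5G52390 at 0.275, which was at background in Col-0. In *rcb-10*, AT5G52390 was highest in replicate 2, at 242, where *rpoC1* and *rpoC2* were lowest.

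The direction of all 4 core genes held under every alternative run. Over 16 alternatives the log2 difference was 1.34 to 1.69 for *rpoA*, 2.45 to 3.02 for *rpoB*, 2.69 to 2.96 for *rpoC1* and 2.68 to 2.90 for *rpoC2*. With any 1 array left out, the differences were 1.47 to 1.56, 2.68 to 2.94, 2.70 to 2.91 and 2.68 to 2.79 in the same order, and the limma adjusted p stayed at or below 0.0263. The ranges of *rpoB*, *rpoC1* and *rpoC2* overlap one another, and that of *rpoA* lies below all 3.

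**Figure D4:**
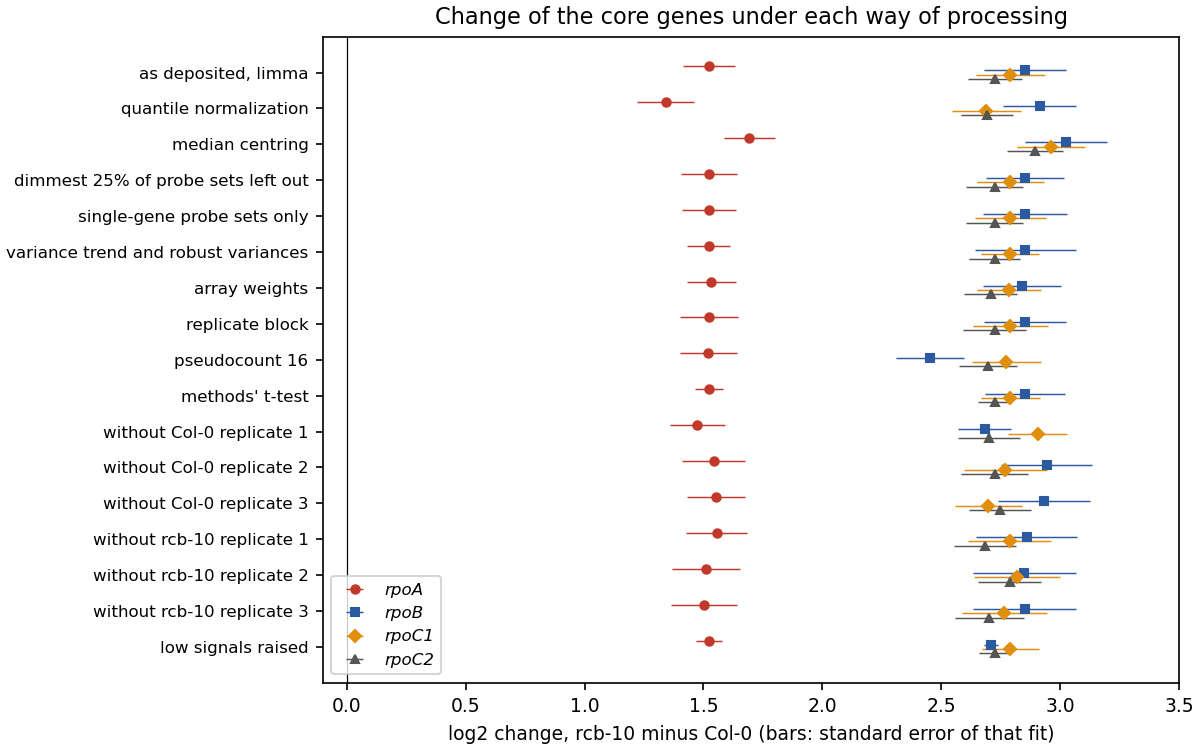
Log2 difference between *rcb-10* and Col-0 of the 4 core genes under each way of processing the signals. Each point is 1 fit with its SE, and 0 marks no difference. Every point lies above 0, with *rpoA* at 1.34 to 1.69 and the other 3 genes at 2.45 to 3.02.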

How the data were processed

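RNA of 3 Col-0 and 3 *rcb-10* samples was hybridized to ATH1 arrays after labelling with the MessageAmp Premier kit. The authors deposited linear intensities per probe set, already scaled to a common trimmed mean (2% of probe sets trimmed at each end). The submitters' processing notes name RMA, whose values are on a log scale, so how these linear values were made is not known here. Their log2 was taken with no further normalization or filter, and the genotypes were compared with limma 3.58.1 in R 4.3.3 over 22746 probe sets, the 64 array controls left out. The probe table gives 1 gene to 13513 probe sets and several to 503, and 8730 are not in it. Where a gene had several probe sets, the one with the highest mean was used. Likeness was computed over single-gene nuclear probe sets. The TAIR10.1 annotation gave names and gene order only. *RCB* is not analysed here.

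The members, the gene lists and the tests were chosen with earlier results of these data known. The rule for named genes took the 4 members, all called members and up to 2 others of each list, the 5 plastid genes with the largest difference, *rbcL*, *psbA*, *psbB* and *rpl20*, and the 3 nuclear genes most alike to each member. Genes beside the members, *ndhH*, *ndhJ*, *ndhK* and the plastid genes other than ribosomal protein and photosynthesis genes were named after their values were seen. The steps were tested on simulated data. Alternatives were quantile normalization, median centring, leaving out the dimmest 25%, single-gene probe sets only, another variance model, array weights, a replicate block, a pseudocount of 16, the methods' t-test, each array left out, and low signals raised to background, the last chosen after seeing the data. The 6 arrays limit the precision.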

Additional observations from a re-analysis of the deposited data

How the results depend on the processing

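For the 4 core genes, 60 of 64 fits kept the direction and the call. The other 4 are those with the replicate number as a block, where the log2 differences were 1.52, 2.85, 2.79 and 2.72 for *rpoA*, *rpoB*, *rpoC1* and *rpoC2* as before and the limma adjusted p was 0.0539 for each (unadjusted p 3.7e-04, 1.3e-04, 9.7e-05 and 6.0e-05). With this block 0 probe sets were called in either direction by limma, 6823 having an unadjusted p under 0.05 against 7574 without it, and so 0 photosynthesis and 0 transcription genes were called. Samples that share a replicate number did not deviate together (correlations 0.0272, −0.0189 and 0.0197, only replicate 1 being the best match), so the numbers were not taken to pair the samples.

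Probe sets called higher numbered 1538, and 2553 after median centring, 657 among single-gene probe sets (fewer tested) and 2408 with a variance trend and robust variances. Those called lower numbered 2315, and 1493, 1006 and 3543 under the same settings. Median centring moved the median of all probe sets by 0.17, from −0.04 to 0.13. With 1 array left out, 474 to 967 were called higher, 782 to 1257 lower, 9 to 14 photosynthesis genes against 16, and 0 to 1 transcription genes against 1. After median centring 5 photosynthesis genes were called higher and 13 lower. The methods' t-test gave 1228 probe sets at their threshold, which includes Benjamini-Hochberg adjustment, and 1887 at the same fold and limit without adjustment. Except where stated, the cause was not tested. The mean of several probe sets was not run, since each core gene has 1. Counts of sigma factors or PEP-associated proteins were not run either, since 0 of them had a named probe set. Signal over background limits *rpoB* in Col-0, *rps14* and *ndhF* in *rcb-10*, and *RPOTmp* and *YS1*.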
